A study of Homo sapiens with 6 samples.

Results

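The ELAVL (Hu) proteins are RNA-binding proteins encoded in humans by ELAVL1, ELAVL2, ELAVL3 and ELAVL4. Their expression was read from every probe set of an Affymetrix HG-U133 Plus 2.0 array whose platform annotation gives 1 of these 4 symbols alone, which were 13 of 54675 probe sets for 4 of 19775 genes with a probe set of their own. ELAVL1 had 4 probe sets, ELAVL2 had 2, ELAVL3 had 3 and ELAVL4 had 4, and 0 probe sets named an ELAVL gene among several genes. The arrays measured total RNA of the established cell line L428, which comes from Hodgkin lymphoma, a cancer whose Hodgkin and Reed-Sternberg cells descend from B cells and have lost most of the B cell program. One group of 3 arrays came from cells nucleofected with an LNA (locked nucleic acid) that inhibits the microRNA miR-9, and the other group of 3 from cells nucleofected with a scrambled LNA. RNA was taken 9 h after transfection in both groups. L428 is 1 cell line, and no untransfected cells were analysed here. The labels number the replicates without saying whether they were separate cultures. The p-values here therefore set a difference only against the spread among these samples.

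ELAVL1 encodes HuR, which is present in most cell types. HuR binds U-rich and AU-rich stretches of mRNAs, mainly in their 3' untranslated regions, and usually stabilizes them or raises their translation. It resides mostly in the nucleus and shuttles to the cytoplasm, where it can compete or cooperate with microRNAs on the same mRNA. ELAVL2 (HuB), ELAVL3 (HuC) and ELAVL4 (HuD) are expressed mainly in neurons, where they regulate splicing, stability and translation of neuronal mRNAs. The series title names HuR as regulated when miR-9 is inhibited, which makes the level of ELAVL1 mRNA the first comparison. The arrays measure mRNA at 9 h only. They do not measure HuR protein, so the values here do not test the title's statement for the protein.

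A microRNA recognizes an mRNA mainly through its seed, bases 2 to 8 from its 5' end. The sequences of both arms of miR-9 are shown because the LNA was directed against this microRNA, and the labels do not name the arm. The seed is in capitals, and the sequences are from RefSeq (GRCh38.p14).
hsa-miR-9-5p: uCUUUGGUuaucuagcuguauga
hsa-miR-9-3p: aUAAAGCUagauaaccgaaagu
The sequence complementary to the seed of hsa-miR-9-5p reads ACCAAAG in the RNA alphabet, and that to the seed of hsa-miR-9-3p reads AGCUUUA. Identical hsa-miR-9-5p sequences come from 3 genes: MIR9-1 at chr1:156420392-156420414 on the minus strand, MIR9-2 at chr5:88666902-88666924 on the minus strand and MIR9-3 at chr15:89368032-89368054 on the plus strand. The arrays do not measure mature miR-9, and sites for it in the ELAVL mRNAs were not analysed here.

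All values are the log2 expression values made by the authors with RMA, a method that combines the probes of a set and normalizes between arrays. The deposited arrays nevertheless had unequal distributions, so a difference in these values can include a difference between whole arrays. The median of each array was 7.10 to 7.11 with miR-9 LNA and 7.11 to 7.15 with scrambled LNA. The bright end of the arrays differed more. The 90th percentile was 9.53 to 9.57 with miR-9 LNA and 9.28 to 9.47 with scrambled LNA, a difference of group means of 0.16 (two-sided exact permutation p = 0.1, the smallest that 3 against 3 arrays allow). Scrambled replicate 1 had the lowest 90th percentile and the highest median. The actin 3'-minus-5' difference, a sign of RNA integrity and labelling, ranged from 0.22 to 0.87 with miR-9 LNA and from 0.24 to 0.58 with scrambled LNA. The cells carried Hodgkin markers: all 10 of the Hodgkin cell markers lay above the median of all probe sets. TNFRSF8 (CD30) averaged 10.57 ± 0.15 with miR-9 LNA and 10.45 ± 0.097 with scrambled LNA (SD, n = 3 each). Not all 10 were bright, and their means over both groups ranged from 7.31 to 12.81. CCL22 averaged 7.25 ± 0.095 with miR-9 LNA and 7.36 ± 0.034 with scrambled LNA, close to the median of all probe sets. Of 5 B cell markers measured, 2 lay above that median (CD79A and PAX5, below 7.5 on average), and of 4 T and NK cell markers 0 did. Each marker gene was represented by its probe set of highest mean. Of the 19775 genes with a probe set of their own, 12366 besides ELAVL1 reached that median in this way.

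ELAVL1 was the one member with bright signal, and its level was slightly higher with miR-9 LNA by an amount that did not pass the test. ELAVL2, ELAVL3 and ELAVL4 were dim in both groups, with probe set means at or above those of 7.32% to 55.0% of all probe sets. Of the 13 probe sets, 0 had an adjusted p under 0.05 in limma, where 0% of the 27307 tested probe sets passed. A probe set was tested where its 6-array mean reached 7.11, the median of the 54613 probe sets other than controls. They included 3 probe sets of ELAVL1 and 1 of ELAVL3, and the other 9 members were read from a limma fit of all 54613, which also called 0% of probe sets. At an unadjusted p under 0.05 limma gave 1 of the 13 members (201727_s_at of ELAVL1, higher), and it gave 14.4% of the tested probe sets (13.8% in the higher direction) and 10.8% of all 54613 (8.88% in the higher direction). Each difference is taken as miR-9 LNA minus scrambled LNA on the log2 scale, errors of means are SDs and errors of differences are limma standard errors, each with 3 arrays per group.

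**Figure D1:**
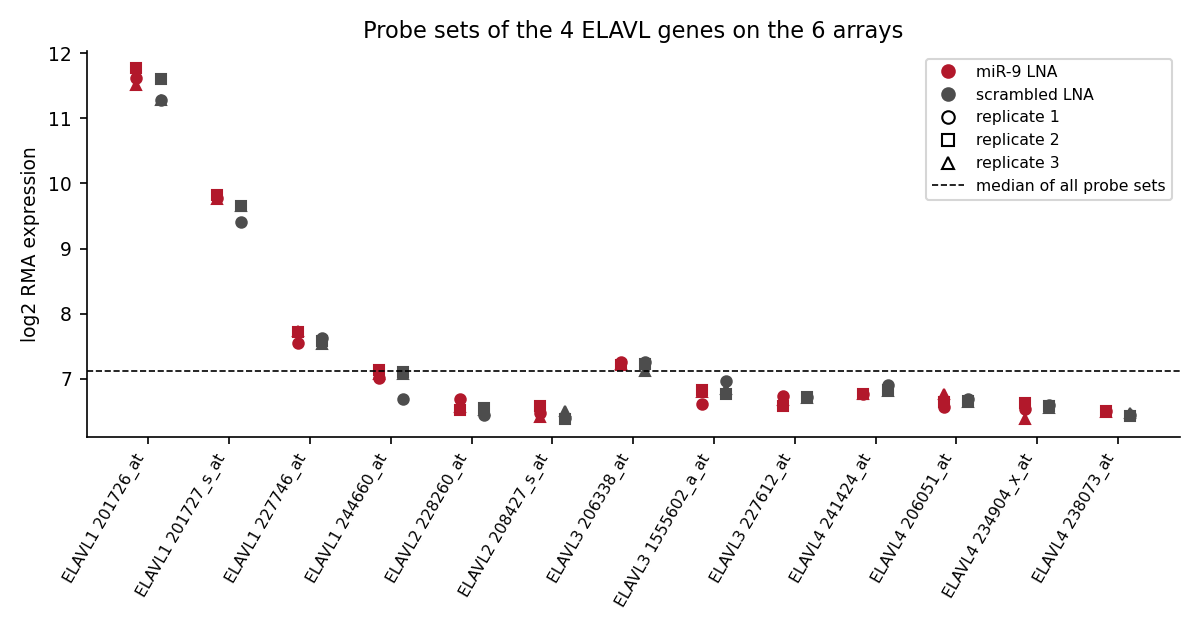
Log2 RMA expression of the 13 ELAVL probe sets on each array, with miR-9 LNA arrays in red on the left of each column and scrambled LNA arrays in grey on the right; the marker shape gives the replicate number and the dashed line is the median of all probe sets (7.11). Probe sets 201726_at and 201727_s_at of ELAVL1 lie well above the line, and 9 of the 13 average below it.

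The brightest ELAVL1 probe set was 201726_at, whose mean lay at or above that of 97.9% of all probe sets. ELAVL1 at 201726_at was at 11.62, 11.77 and 11.51 on miR-9 LNA replicates 1, 2 and 3, against 11.29, 11.61 and 11.29 on scrambled replicates 1, 2 and 3. The groups overlapped: scrambled replicate 2 lay above miR-9 LNA replicate 3 and just below miR-9 LNA replicate 1. The means were 11.64 ± 0.13 with miR-9 LNA and 11.40 ± 0.18 with scrambled LNA, a difference of 0.24 ± 0.11 (limma adjusted p = 0.362). In bulk RNA, more cells that express a gene and more of its RNA per cell cannot be told apart. The difference is 1.18-fold, with a 95% interval from 0.991-fold to 1.41-fold. Replicate 2 was the highest array of each group, and the difference within same-numbered arrays was 0.33, 0.17 and 0.22 for replicates 1, 2 and 3. With same-numbered arrays as blocks, the difference was 0.24 ± 0.061 (limma adjusted p = 0.159).

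At 201727_s_at, a probe set whose suffix marks probes shared by several transcripts, ELAVL1 was at 9.78, 9.82 and 9.75 with miR-9 LNA, against 9.41, 9.65 and 9.65 with scrambled LNA. Every miR-9 LNA array lay above every scrambled array, as for 18.1% of the tested probe sets in that direction and 34.6% of the brightest of 5 level classes of equal size (exact permutation p = 0.1, two-sided). The mean was 9.78 ± 0.032 over miR-9 LNA arrays and 9.57 ± 0.14 over scrambled LNA arrays, a difference of 0.21 ± 0.081 (limma adjusted p = 0.318). As a fold this is 1.16, with a 95% interval from 1.02 to 1.32. Scrambled replicate 1 lay apart below the other arrays, and without it the difference was 0.13 (limma adjusted p = 0.384).

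The other pair of ELAVL1 probe sets was dim. ELAVL1 at 227746_at was at 7.55, 7.72 and 7.73 with miR-9 LNA, against 7.63, 7.57 and 7.54 with scrambled LNA, a difference of 0.086 ± 0.071 (limma adjusted p = 0.574). The groups overlapped, and miR-9 LNA replicate 1 lay below scrambled replicates 1 and 2. ELAVL1 at 244660_at was at 7.01, 7.12 and 7.07 with miR-9 LNA, against 6.69, 7.10 and 7.07 with scrambled LNA, a difference of 0.11 ± 0.11 (limma adjusted p = 0.724 over all 54613 probe sets). Here 5 arrays lay within a narrow range and scrambled replicate 1 lay below them; without that array the difference of 244660_at was -0.019. All 4 ELAVL1 probe sets thus had positive differences in the deposited values, as had 66.9% of all tested probe sets and 95.3% of the brightest level class.

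**Figure D2:**
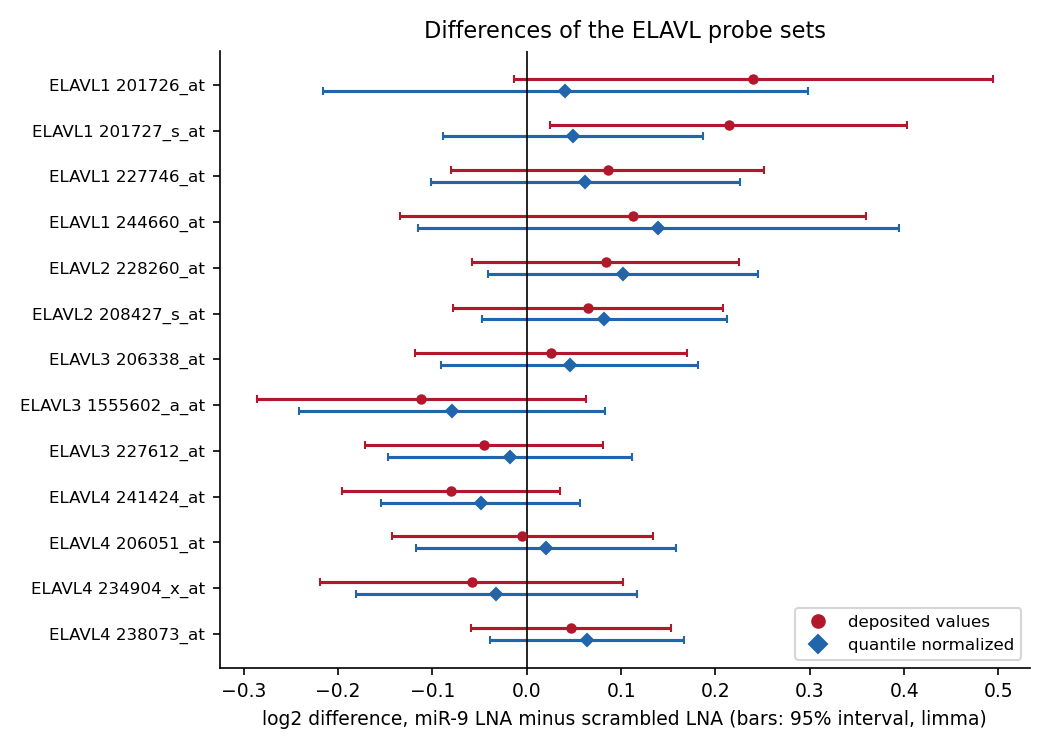
Log2 difference (miR-9 LNA minus scrambled LNA) of each ELAVL probe set with its limma 95% interval, from the deposited values (red circles) and after quantile normalization between arrays (blue diamonds). The intervals of 201726_at and 201727_s_at of ELAVL1 shift toward 0 after quantile normalization, and 201727_s_at in the deposited values is the one interval that does not cover 0.

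The ELAVL1 difference was set beside those of other mRNAs of its brightness, since the bright end of the arrays differed between the groups. In the brightest of the 5 level classes the median difference was 0.19, against -0.027 in the dimmest class. Of the brightest class, 74.4% had a smaller difference than 201726_at of ELAVL1 and 62.2% a smaller one than 201727_s_at. Both therefore lay above the middle of that class and inside its bulk. The dimmer 227746_at of ELAVL1 belonged to the class next to the dimmest, where the median difference was -0.0050 and 82.3% of probe sets had a smaller one.

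**Figure D3:**
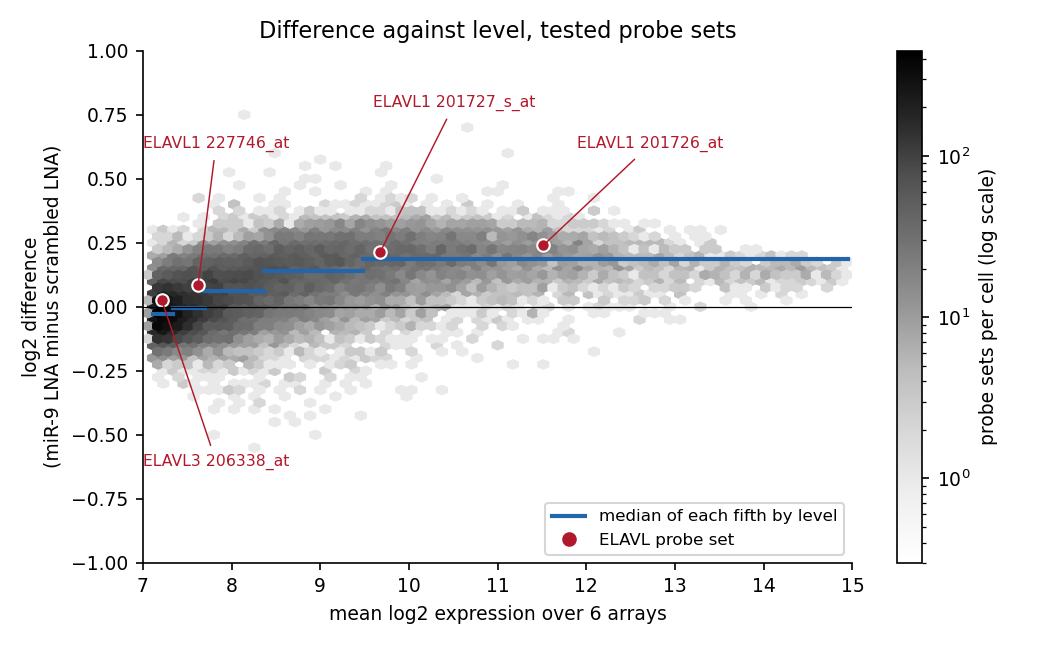
Log2 difference (miR-9 LNA minus scrambled LNA) against mean log2 expression for the 27307 tested probe sets, shaded by their number on a log scale, with the median of each of 5 level classes in blue and the 4 tested ELAVL probe sets in red. The median rises from -0.027 in the dimmest class to 0.19 in the brightest, and the ELAVL1 probe sets at 11.5 and 9.68 lie slightly above the blue line of the brightest class.

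Scaling the arrays to each other reduced the difference of the 2 bright ELAVL1 probe sets. After quantile normalization, which gives all arrays the same distribution of values, ELAVL1 at 201726_at was at 11.46, 11.72 and 11.43 with miR-9 LNA, against 11.54, 11.64 and 11.31 with scrambled LNA, a difference of 0.041 with a 95% interval from -0.22 to 0.30 (limma adjusted p = 0.963). At 201727_s_at the quantile-normalized ELAVL1 values were 9.68, 9.77 and 9.66 with miR-9 LNA, against 9.62, 9.68 and 9.66 with scrambled LNA, a difference of 0.049 with a 95% interval from -0.088 to 0.19 (limma adjusted p = 0.920). The groups then overlapped at both probe sets. Cyclic loess normalization, which removes differences that follow the level, gave 0.049 for 201726_at and 0.038 for 201727_s_at. The dim probe sets of ELAVL1 moved less, with quantile-normalized differences of 0.062 at 227746_at and 0.14 at 244660_at.

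ELAVL1 was also set against reference genes, mRNAs that are often used to scale expression measurements. The 6 reference genes measured (GAPDH, B2M, TBP, HPRT1, PPIA and GUSB) all had positive differences, with a median of 0.18, and 0 of 6 passed the limma threshold. Positive differences made up 66.9% of all tested probe sets and 95.3% of the brightest level class. Within replicate 1, GAPDH, B2M and PPIA differed by 0.42, 0.45 and 0.54, and within replicates 2 and 3 by -0.042 to 0.026. TBP, HPRT1 and GUSB were higher with miR-9 LNA in all 3 replicates. The mean of the 6 reference genes was 12.08 on scrambled replicate 1, 12.33 on scrambled replicates 2 and 3, and 12.38 to 12.52 with miR-9 LNA. Relative to the mean of these genes on the same array, ELAVL1 at 201726_at lay at -0.90, -0.61 and -0.87 with miR-9 LNA, against -0.79, -0.72 and -1.04 with scrambled LNA (exact permutation p = 0.7, two-sided). At 201727_s_at ELAVL1 lay at -2.75, -2.56 and -2.63 with miR-9 LNA, against -2.68, -2.68 and -2.68 with scrambled LNA (exact permutation p = 0.7, two-sided). The scrambled arrays were nearly level with each other on this scale, and miR-9 LNA replicate 1 lay below them while replicates 2 and 3 lay above. Scaled to the reference genes, the limma difference of ELAVL1 was 0.057 at 201726_at and 0.031 at 201727_s_at, and it was negative at 227746_at (-0.097) and 244660_at (-0.070).

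**Figure D4:**
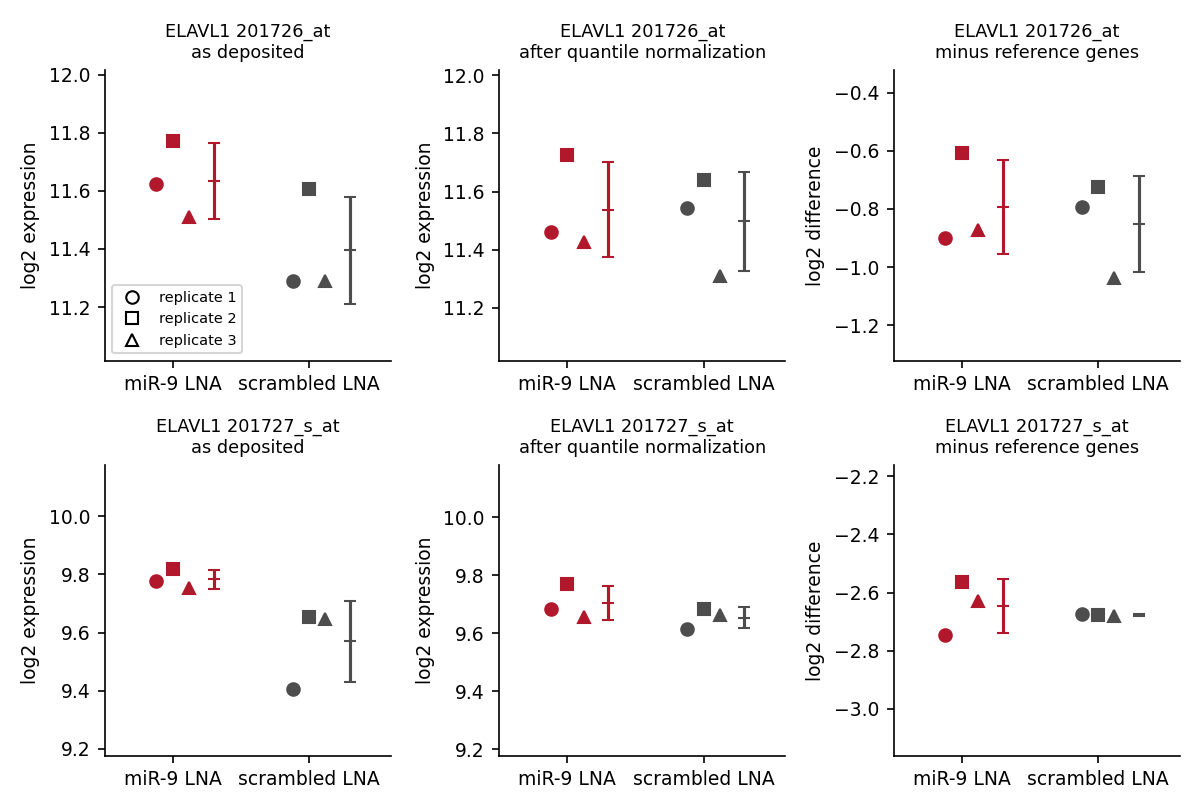
ELAVL1 at probe sets 201726_at (top) and 201727_s_at (bottom) on each array as deposited, after quantile normalization and after subtracting the mean of 6 reference genes; every panel spans 1 log2 unit, the marker gives the replicate number, and bars show the mean ± SD (n = 3). The difference of group means is 0.24 and 0.21 as deposited, and the groups overlap in every panel except that of 201727_s_at as deposited.

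The neuronal members were dim in both groups. ELAVL2 was at 6.68, 6.52 and 6.56 with miR-9 LNA, against 6.44, 6.55 and 6.51 with scrambled LNA, at probe set 228260_at, a difference of 0.084 ± 0.061 (limma adjusted p = 0.646). At 208427_s_at ELAVL2 was at 6.47, 6.57 and 6.41 with miR-9 LNA, against 6.39, 6.37 and 6.49 with scrambled LNA, a difference of 0.065 ± 0.062 (limma adjusted p = 0.726). The groups overlapped at both, and their means lay at or above those of 12.3% and 7.32% of all probe sets. The lowest value of any array lay between 5.97 and 6.08, so these values are within 1 log2 unit of the floor of the data.

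ELAVL3 had 1 probe set above the level filter, 206338_at, at 7.251, 7.204 and 7.223 with miR-9 LNA, against 7.257, 7.224 and 7.121 with scrambled LNA. All values lay close to the filter, the groups overlapped, and the difference was 0.025 ± 0.062 (limma adjusted p = 0.860). ELAVL3 at 1555602_a_at was at 6.61, 6.82 and 6.80 with miR-9 LNA, against 6.96, 6.77 and 6.84 with scrambled LNA, a difference of -0.11 ± 0.076 (limma adjusted p = 0.621). The lowest miR-9 LNA array and the highest scrambled array both have number 1, and the other 4 arrays overlapped. ELAVL3 at 227612_at was at 6.74, 6.58 and 6.67 with miR-9 LNA, against 6.72, 6.71 and 6.70 with scrambled LNA, a difference of -0.045 ± 0.055 (limma adjusted p = 0.789). The scrambled arrays were close together there, and miR-9 LNA arrays lay on both sides of them.

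ELAVL4 had 2 probe sets whose groups did not overlap, in opposite directions. At 241424_at ELAVL4 was at 6.76, 6.76 and 6.77 with miR-9 LNA, against 6.90, 6.82 and 6.80 with scrambled LNA, a difference of -0.080 ± 0.050 (limma adjusted p = 0.590). At 238073_at ELAVL4 was at 6.50, 6.49 and 6.48 with miR-9 LNA, against 6.43, 6.43 and 6.48 with scrambled LNA, a difference of 0.047 ± 0.046 (limma adjusted p = 0.735). Each gave a two-sided exact permutation p of 0.1, and over all 54613 probe sets the groups did not overlap for 7.05% in the lower and 10.1% in the higher direction. ELAVL4 at 206051_at was at 6.57, 6.64 and 6.76 with miR-9 LNA, against 6.68, 6.65 and 6.64 with scrambled LNA, a difference of -0.0045 ± 0.060 (limma adjusted p = 0.984). At 234904_x_at, whose suffix marks probes that can bind other sequences too, ELAVL4 was at 6.54, 6.63 and 6.38 with miR-9 LNA, against 6.59, 6.58 and 6.54 with scrambled LNA, a difference of -0.058 ± 0.069 (limma adjusted p = 0.784). At both, the miR-9 LNA arrays spread more widely than the scrambled arrays and lay on both sides of them.

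Across ELAVL2, ELAVL3 and ELAVL4, 4 of 9 probe sets had positive and 5 had negative differences, from -0.11 to 0.084. The 95% intervals of their differences lay between -0.29 and 0.23, on probe sets with low means from 6.45 to 7.21. Levels are not ordered between these genes, since probe sets differ in how strongly they bind. Of 11 neuronal markers, 9 averaged above the median of all probe sets. With each gene read at its probe set of highest mean, 12366 of 19775 genes besides ELAVL1 also reached it. Among the 9, TUBB3 (a tubulin) was at 11.12 ± 0.074 with miR-9 LNA and 11.03 ± 0.088 with scrambled LNA. The TUBB3 probe set has the suffix _x_at, which marks probes that can bind other sequences too. Its signal may therefore not come from TUBB3 alone, which was not tested. ENO2 (an enolase) was at 10.20 ± 0.034 with miR-9 LNA and 9.95 ± 0.055 with scrambled LNA. DCX, a protein of migrating neurons, and CELF4, a neuronal RNA-binding protein, lay below the median of all probe sets. RBFOX3, the neuronal nuclear antigen NeuN, was at 7.16 ± 0.069 with miR-9 LNA and 7.19 ± 0.085 with scrambled LNA. MAP2, a microtubule-associated protein, differed by 0.24 ± 0.093, and SYN1, a synaptic vesicle protein, by -0.16 ± 0.11 (limma adjusted p = 0.319 and 0.485). Of the 9 neuronal markers tested, 6 had positive and 3 negative differences with a median of 0.011, and 0 passed the limma threshold. Among all tested probe sets 66.9% were positive.

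Probe sets of 1 gene did not all vary together over the arrays. The Pearson correlation over the 6 arrays was 0.78 between 201726_at and 201727_s_at of ELAVL1, 0.86 between 201727_s_at and 244660_at, and 0.36 or lower between 227746_at and each of the other ELAVL1 probe sets. All 6 points share the brightness of their array, and after quantile normalization the first of these was 0.58 and the second 0.72. ELAVL4 241424_at and 238073_at correlated at -0.83, and the correlation between the ELAVL2 probe sets was 0.099.

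The genes whose pattern over the 6 arrays was most like 201726_at of ELAVL1, among 12366 other tested genes, were SMPD3 (a sphingomyelinase), DOCK4 (a guanine nucleotide exchange factor), PPARGC1B (a transcriptional coactivator), KIF1B (a kinesin motor), CDC27 (a subunit of the anaphase-promoting complex) and TBC1D24, with Pearson correlations from 0.990 to 0.996. CDC27 ranked the arrays exactly as ELAVL1 did: it was at 10.30, 10.49 and 10.25 with miR-9 LNA, against 10.04, 10.28 and 10.04 with scrambled LNA, a difference of 0.22 ± 0.095 (limma adjusted p = 0.345). In both genes replicate 2 was the highest array of its group, and scrambled replicates 1 and 3 were the lowest of all. CDC27 and KIF1B were also among the 6 most like ELAVL1 after quantile normalization, and 0 of the 6 were when 201727_s_at of ELAVL1 was used in place of 201726_at. Over 12366 genes and 6 arrays, 2.92% of genes reached a correlation of 0.9.

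The proteins that bind HuR or carry it between nucleus and cytoplasm had bright mRNAs. Of 7 such genes, 7 had positive differences with a median of 0.22, and 0 passed the threshold. The median was 0.062 over all tested probe sets and 0.19 over the brightest level class, where all 7 lie and where 95.3% of differences were positive. ANP32A (pp32), a HuR ligand, was at 11.25 ± 0.049 with miR-9 LNA and 11.00 ± 0.14 with scrambled LNA, a difference of 0.25 ± 0.081 (limma adjusted p = 0.296). KPNA2, an importin, differed by 0.22 ± 0.079 (limma adjusted p = 0.306), XPO1 (CRM1), the export receptor, by 0.24 ± 0.095 (limma adjusted p = 0.331), and ANP32B (APRIL), another HuR ligand, by 0.26 ± 0.11 (limma adjusted p = 0.337). The smallest differences were those of the transportins TNPO1 and TNPO2, at 0.024 ± 0.17 and 0.079 ± 0.099, named after their values were seen. With quantile-normalized values the median of the 7 was 0.064, with 5 positive and 2 negative.

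Enzymes that modify HuR or act on its transport showed no common direction. Of 9 measured, 6 had positive and 3 negative differences with a median of 0.045, and 0 passed the threshold. Among all tested probe sets 66.9% were positive. The protein kinase C gene PRKCA differed by 0.27 ± 0.13 (limma adjusted p = 0.386), PRKAA1, a catalytic subunit of AMP-activated kinase, by 0.18 ± 0.096 (limma adjusted p = 0.417), and CDK1, which phosphorylates HuR, by 0.14 ± 0.076 (limma adjusted p = 0.423). CHEK2, a DNA damage kinase that phosphorylates HuR, differed by -0.083 ± 0.072 (limma adjusted p = 0.589). With quantile-normalized values 2 of the 9 were positive and 7 negative, with a median of -0.061.

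Of 7 other proteins that bind AU-rich elements, 6 had positive and 1 a negative difference, with a median of 0.22 and 0 past the threshold. Among all tested probe sets 66.9% were positive, and in the brightest level class 95.3%, with a median of 0.19. TIA1 and TIAL1, which repress translation, differed by 0.29 ± 0.12 and 0.22 ± 0.086 (limma adjusted p = 0.328 and 0.320), and these are the 2 of 7 genes in which every miR-9 LNA array lay above every scrambled array, as for 34.6% of the brightest level class, to which both belong. ZFP36L2, which promotes mRNA decay, differed by 0.32 ± 0.15 (limma adjusted p = 0.365). KHSRP, a decay factor, was the negative one at -0.095 ± 0.083 (limma adjusted p = 0.593), and it differed by -0.27 after quantile normalization. The median of the 7 was then 0.028, with 5 positive and 2 negative.

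Among mRNAs that HuR is known to bind, 18 of 21 measured lay above the level filter. Of these, 16 had positive and 2 negative differences, with a median of 0.15 and 0 past the threshold. Positive differences made up 66.9% of all tested probe sets (median 0.062) and 95.3% of the brightest level class (median 0.19). CTNNB1 (beta-catenin) was at 10.28 ± 0.043 with miR-9 LNA and 9.86 ± 0.081 with scrambled LNA, a difference of 0.42 ± 0.066 (limma adjusted p = 0.296), and 0.24 after quantile normalization. MCL1, an anti-apoptotic protein, differed by 0.18 ± 0.073 (limma adjusted p = 0.328), and the cyclins CCNE1 and CCNB1 by 0.24 ± 0.11 and 0.25 ± 0.12 (limma adjusted p = 0.370 and 0.381). With quantile-normalized values the median of the 18 was 0.0031, with 9 positive and 9 negative. Of 6 mRNAs bound by the neuronal Hu proteins, 3 lay above the filter: ACHE, MAPT and CAMK2A, each averaging below 7.5 in both groups, with differences from -0.086 to 0.046 and 0 past the threshold.

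**Figure D5:**
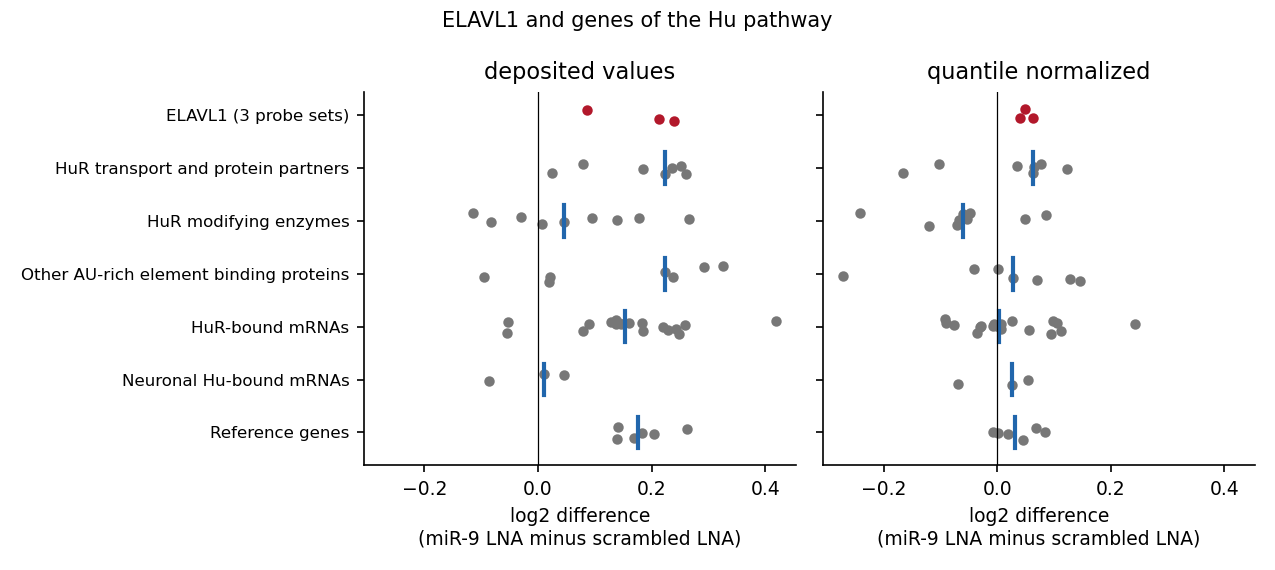
Log2 differences (miR-9 LNA minus scrambled LNA) of the 3 tested ELAVL1 probe sets (red) and of the tested genes of each list (grey points, 1 probe set a gene), with the median of each list in blue, from the deposited values (left) and after quantile normalization (right). On the left the medians of the HuR partners and the other AU-rich element binding proteins lie at 0.22, and on the right the medians of the 6 lists drawn (5 of the Hu pathway and the reference genes) lie between -0.061 and 0.064.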

How the data were processed

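The authors deposited log2 expression values of 6 HG-U133 Plus 2.0 arrays (3 per group), and affy and RMA are the tools listed, per the submitters' processing notes; their versions and settings are not given in the sources used here. Whether anything was added after RMA is not stated: values start near 6. The array distributions are also unequal, with 90th percentiles from 9.28 to 9.57, although RMA normalizes between arrays. No genome build applies. With 3 arrays per group, their number sets the precision.

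From these values, 62 control probe sets were left out, and the 27307 with a mean of at least 7.11 were tested with limma 3.58.1 in R 4.3.3 (lmFit, eBayes, two-sided, Benjamini-Hochberg, threshold 0.05). Intervals are limma's 95% intervals. Members below the filter were read from a fit without it. Each listed gene was represented by its tested probe set of highest mean. Gene names are those of the platform annotation, in which 41091 probe sets have 1 symbol, 1801 several and 11721 none, and all 13 members matched the GRCh38.p14 gene table. Listed genes with no probe set under their symbol here are not reported.

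The members and lists were chosen with earlier results of these data known, so they are described by counts and medians. Named are all ELAVL probe sets, up to 4 tested genes of lowest p per list, reference genes and cell type markers, and the 6 genes most like ELAVL1. DCX, CELF4 and RBFOX3 are markers.

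Replicate numbers come from the titles. Deviations from the group means correlated at 0.231, 0.193 and 0.634 between same-numbered arrays, all above 0.1. The correlation of miR-9 LNA replicate 1 with scrambled replicate 2 was also above 0.1, at 0.168, so this cutoff does not set pairs apart. Every array nevertheless correlated more with the same-numbered array of the other group than with the others of that group. The labels do not say whether the numbers mark pairs. Same-numbered arrays were treated as pairs in the blocked alternative only, and the main fit used no pairs. No 2 arrays held identical values. Scripts were tested on simulated data. Figures used matplotlib 3.10.9.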

Additional observations from a re-analysis of the deposited data

How the results depend on the processing

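Under each of 16 alternatives, 0 of the 13 members reached a limma adjusted p under 0.05; the lowest limma adjusted p was 0.159 (201726_at of ELAVL1, 0.24 ± 0.061, with the replicate block). The number of members at an unadjusted p under 0.05 ranged from 0 to 2. The replicate block changed no call; with it, limma called 0 probe sets, with an unadjusted p under 0.05 in 6218, against 3926 without it and 1243 after quantile normalization. Quantile normalization with the block, and quantile normalization without scrambled replicate 1, were chosen after seeing the data; 201726_at of ELAVL1 then differed by 0.041 and 0.063. Over the alternatives 190 of 208 differences kept their direction and 18 changed it, 4 of them of ELAVL1. Scaled to reference genes, the difference was -0.097 at 227746_at and -0.070 at 244660_at of ELAVL1, -0.099 at 228260_at and -0.12 at 208427_s_at of ELAVL2, -0.16 at 206338_at of ELAVL3 and -0.14 at 238073_at of ELAVL4; by construction this scaling subtracts the mean difference of the reference genes, 0.18, from every probe set. ELAVL4 206051_at changed sign at 0.021 (quantile, with and without the block), 0.022 (cyclic loess), 0.0027 (array weights) and 0.024 (quantile without scrambled replicate 1), where ELAVL1 244660_at was at -0.0016. Leaving out each array, the differences ranged from 0.17 to 0.35 at 201726_at, 0.13 to 0.26 at 201727_s_at, 0.054 (without miR-9 LNA replicate 3) to 0.14 (without miR-9 LNA replicate 1) at 227746_at and -0.019 to 0.19 at 244660_at of ELAVL1, from 0.036 (without miR-9 LNA replicate 1) to 0.12 at 228260_at and 0.020 (without miR-9 LNA replicate 2) to 0.10 (without scrambled replicate 3) at 208427_s_at of ELAVL2, from -0.014 to 0.054 at 206338_at, -0.16 to -0.046 (without miR-9 LNA replicate 1) at 1555602_a_at and -0.081 (without miR-9 LNA replicate 1) to -0.0054 (without miR-9 LNA replicate 2) at 227612_at of ELAVL3, and from -0.056 to 0.039 at 206051_at, -0.12 to 0.0100 at 234904_x_at, 0.037 to 0.062 at 238073_at and -0.10 to -0.049 (without scrambled replicate 1) at 241424_at of ELAVL4. Of the 6 genes most like ELAVL1, 2 were shared after quantile normalization, 0 with 201727_s_at and 2 after subtracting group means. Otherwise the cause was not tested. Low signal limits ELAVL2, ELAVL3 and ELAVL4.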
